A study of Mus musculus with 12 samples.

Results

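The interferon-stimulated genes described here are Ifit1, Ifit2, Ifit3, Isg15, Rsad2, Usp18, Bst2, Irf7 and Oas1a, 9 genes picked by symbol from the 57010 genes of a liver expression table. They were selected by name for their known place in the interferon response, with earlier results of these data known. The table holds 12 RNA-seq libraries, each from the liver of a separate male C57BL/6J mouse of wild-type genotype. The 6 mice of the selenium group received selenium-enriched Aspergillus oryzae A02, a koji mould that carries selenium, by daily gavage in saline at 0.5 mg of selenium per kg of body weight. The 6 control mice are labelled as untreated, and a saline gavage is not mentioned for them. All mice ate a normal diet and were assigned to their group at 6 weeks of age after 7 days of acclimatization. The design text gives 8 weeks of feeding and the sample descriptions 14 weeks, and the age at collection is not stated. The protocol names 10 mice per group, of which 6 per group were analysed here. The study asked how the selenium-enriched mould acts on the metabolism of the mice. Mice are called selenium 1 to 6 and control 1 to 6.

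Interferons are secreted proteins, of which types I and III are released by cells that sense foreign nucleic acid. Type I and type III interferons act through receptors, Jak kinases and a complex of Stat factors and Irf9 that binds the interferon-stimulated response element in the promoters of target genes. The products of those genes block steps of viral growth, raise the capacity to sense nucleic acid, or damp the receptor again, and a low tonic expression of them is known in uninfected liver.

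The promoters of Isg15, Bst2, Ifit1 and Ifit3 are shown as examples of windows that hold the core letters of that element. RefSeq windows (GRCm38.p6) from 250 bases before to 50 after the transcription start were matched by symbol for 8 of the 9 genes, with 2 windows for Ifit2. The core, GAAA, any 2 bases and GAAA again, was searched on both strands with overlapping matches allowed, and was found for 6 of the 8 genes, Isg15, Bst2, Ifit1, Ifit3, Rsad2 and Oas1a. Of all 27025 genes with a window, 3.99% held it. A stricter core, GAAAC, any base and GAAA, was found for 5 of the 8 genes, against 0.792% of all genes. The 200 bases before the start are printed on the strand of the gene, with the matches in capitals.
Isg15, chr4:156200819-156201018, minus strand: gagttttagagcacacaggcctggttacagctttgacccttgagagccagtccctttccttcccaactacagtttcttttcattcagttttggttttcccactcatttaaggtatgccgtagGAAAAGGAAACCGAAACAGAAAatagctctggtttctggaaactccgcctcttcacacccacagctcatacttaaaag
Bst2, chr8:71537473-71537672, minus strand: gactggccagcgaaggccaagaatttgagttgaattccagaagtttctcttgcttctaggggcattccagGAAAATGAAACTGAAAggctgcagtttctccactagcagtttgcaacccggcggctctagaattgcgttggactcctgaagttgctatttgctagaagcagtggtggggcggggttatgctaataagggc
Ifit1, chr19:34640689-34640888, plus strand: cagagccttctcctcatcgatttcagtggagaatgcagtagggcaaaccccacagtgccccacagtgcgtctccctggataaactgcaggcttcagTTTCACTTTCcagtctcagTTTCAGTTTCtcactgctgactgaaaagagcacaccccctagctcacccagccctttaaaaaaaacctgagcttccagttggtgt
Ifit3, chr19:34583329-34583528, plus strand: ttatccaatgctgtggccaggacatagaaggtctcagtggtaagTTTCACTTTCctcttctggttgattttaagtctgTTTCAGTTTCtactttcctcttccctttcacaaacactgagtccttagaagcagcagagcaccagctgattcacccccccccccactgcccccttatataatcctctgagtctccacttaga

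In Isg15, 3 overlapping matches spanned positions -78 to -57 from the start, and in Bst2 2 overlapping matches spanned -130 to -115. A stretch of bases shortly after this RefSeq start of Bst2 was not found in its GENCODE M21 transcripts. The positions given for Bst2 therefore hold for the RefSeq start only. Ifit1 and Ifit3 each held 2 separate matches, read on the opposite strand, at -104 to -95 and -85 to -76 in Ifit1 and at -156 to -147 and -122 to -113 in Ifit3. The windows of Ifit2 and of Irf7 did not hold these letters. For the second window of Ifit2 the stretch shortly after the start was likewise not found in its transcripts. For Irf7 this was not checked. A match is a stretch of letters and was not tested for binding here.

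The values are TPM, a measure that sets reads per length of transcript and scales each library to the same sum, so that levels can be compared between genes, and which do not carry the depth of a library. Libraries correlated with each other at Pearson r of 0.935 to 0.986 over genes. Of all genes, 9980 reached 1 TPM in 6 or more libraries and were tested. The libraries differed in Dbp, an output gene of the circadian clock. Selenium 1 and 5 had 31.5 and 53.6 TPM of it, control 5 and 6 had 15.7 and 28.5 TPM, and the other 8 libraries had 0.72 to 1.44 TPM. The labels give no time of collection. The comparisons of the tested interferon-stimulated genes are therefore also given within the 8 low-Dbp libraries and within the 4 high-Dbp libraries, a split made from the data. Those of most other genes are given over the 12 libraries only.

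The samples are labelled as liver and, by cell type, as hepatocyte. The 5 hepatocyte markers summed to 30509.6 to 45732 TPM in selenium livers and 29757 to 49414 TPM in control livers. Markers of Kupffer cells, the macrophages of the liver, also passed the filter in 7 of 7 genes and summed to 52.5 to 329 TPM in selenium livers and 73.3 to 325 TPM in control livers. Lyz2, which other myeloid cells also express, made up 175 TPM of the highest selenium sum, in selenium 3. It made up 287 TPM of the highest control sum, in control 5. Clec4f was at its highest of the 12 libraries in selenium 3 (54.0 TPM) and at its lowest in control 5 (12.6 TPM). The 4 markers of plasmacytoid dendritic cells, strong producers of interferon, summed to 0.04 to 6.26 TPM in selenium livers and 0.16 to 1.18 TPM in control livers. None of them passed the filter. The sum of 6.26 TPM, in selenium 4, was almost all Cox6a2, at 6.17 TPM. In that library Siglech was listed at 0, Ccr9 at 0.01 TPM and Klk1 at 0.08 TPM. In such bulk tissue, fewer cells of a type and less RNA per cell cannot be told apart.

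No interferon-stimulated gene passed the test between selenium and control livers. Of the 9 genes, 7 could be tested, and 0 of these 7 passed an adjusted p of 0.05 (limma on log2(TPM + 1), Benjamini-Hochberg over 9980 genes), where 0.331% of all genes tested passed. At an unadjusted p under 0.05 the count was also 0 of 7, against 18.5% of all genes, and the exact permutation test over the 924 ways to label 6 of 12 mice gave 0 of 7 as well, with 17.5% of all genes under an unadjusted 0.05. The log2 change was negative in 6 genes and positive in Irf7 alone, with a median of -0.14 beside -0.03 over all genes tested. The 2 groups overlapped in all 7, while 1.63% of all genes had groups that did not overlap. Their spread between mice of a group was wide, with a median standard deviation of 0.55 on the log2 scale against 0.26 over all genes tested, and each of the 7 spread more than 76.1% to 97.8% of all genes.

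**Figure D1:**
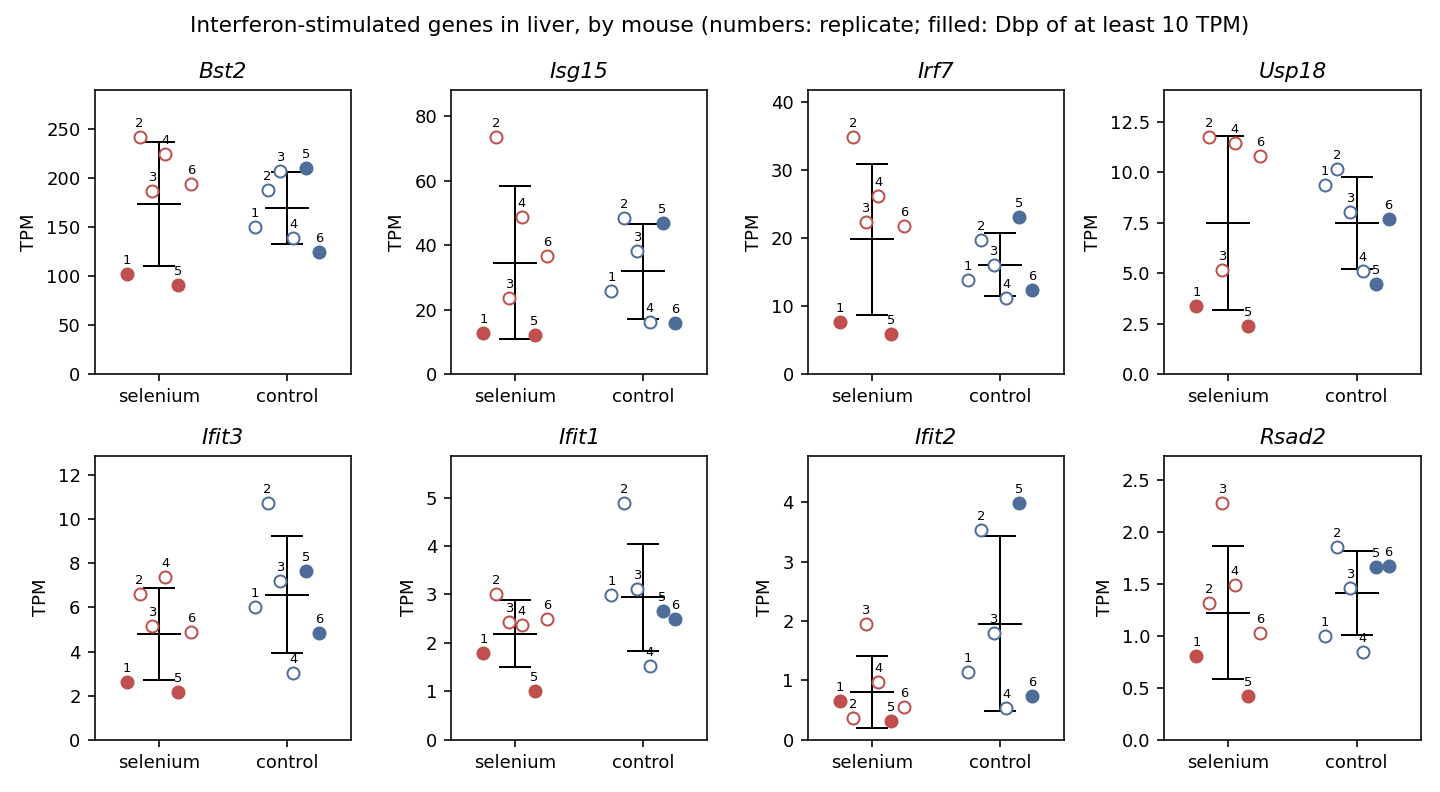
TPM (linear axes from 0) of the 8 detected interferon-stimulated genes in each of the 12 livers, selenium left and control right in every panel, with numbered points for mice, filled where Dbp was at least 10 TPM, and black lines for the mean ± SD. Selenium 5 is the lowest point in all 8 panels, and the groups overlap in each.

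By level the genes ran from Bst2, with 171 ± 49.2 TPM (SD, n = 12), through Isg15 with 33.3 ± 18.9, Irf7 with 18.0 ± 8.35, Usp18 with 7.48 ± 3.29, Ifit3 with 5.69 ± 2.45, Ifit1 with 2.57 ± 0.963, Ifit2 with 1.38 ± 1.23 and Rsad2 with 1.32 ± 0.520 TPM to Oas1a, listed at 0 in all 12 libraries. The ranges over mice overlapped between all neighbours in this order except Bst2 and Isg15, and Rsad2 and Oas1a. Within a library, Bst2 lay above Isg15, Isg15 above Irf7, Irf7 above Usp18 and Ifit3 above Ifit1 in 12 of 12 mice. Usp18 lay above Ifit3 in 9 mice, Ifit1 above Ifit2 in 11 and Ifit2 above Rsad2 in 4, so Ifit2 and Rsad2 had no settled order.

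Irf7 encodes the transcription factor that amplifies the interferon response after the first wave. It was at 7.73, 34.9, 22.4, 26.3, 5.85 and 21.9 TPM in selenium 1 to 6, and at 13.9, 19.8, 16.1, 11.3, 23.2 and 12.4 TPM in control 1 to 6. The selenium livers held both the lowest levels, in mice 1 and 5, and the highest, in mouse 2, and the controls lay between them. The means were 19.8 ± 11.1 TPM with selenium and 16.1 ± 4.60 TPM in controls (SD, n = 6 each), and the log2 change of 0.09 had a 95% interval of -0.68 to 0.87 (limma adjusted p = 0.919).

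Usp18 is the protease that removes Isg15 from proteins and that also holds back signalling at the type I interferon receptor. Its levels were 3.39, 11.8, 5.14, 11.5, 2.38 and 10.8 TPM in selenium 1 to 6, against 9.39, 10.2, 8.03, 5.11, 4.49 and 7.71 TPM in control 1 to 6. Selenium livers fell into a low set of mice 1, 3 and 5 and a high set of mice 2, 4 and 6, on either side of most controls. Control 5 was the lowest control for Usp18, although it was the highest control for Bst2 and Irf7. The mean TPM was nearly the same, 7.49 ± 4.32 with selenium and 7.48 ± 2.27 in controls, while the mean of log2(TPM + 1), on which low values weigh more, differed by -0.14 (95% interval -0.85 to 0.57, limma adjusted p = 0.859).

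Isg15 encodes the ubiquitin-like protein that is joined to other proteins during the response. It was at 12.8, 73.5, 23.7, 48.9, 12.1 and 36.7 TPM in selenium 1 to 6, and at 25.7, 48.6, 38.1, 16.3, 46.8 and 16.0 TPM in control 1 to 6. Of the 7 tested genes it varied most between mice of a group, with a within-group standard deviation of 0.87 on the log2 scale, larger than that of 97.8% of all genes tested. The group means were 34.6 ± 23.8 TPM with selenium and 31.9 ± 14.7 TPM in controls, so the mean TPM was higher with selenium, while the log2 change, a difference of mean log2(TPM + 1), was -0.03 (95% interval -0.95 to 0.88, limma adjusted p = 0.979).

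Bst2 encodes tetherin, a membrane protein that holds budding virus particles on the cell surface. Selenium 1 to 6 had 102, 241, 187, 225, 90.5 and 194 TPM of it, and control 1 to 6 had 150.0, 188, 207, 139, 209.9 and 124 TPM. Again selenium 1 and 5 were below every control and selenium 2 and 4 above every control. The means were 173 ± 63.0 TPM with selenium and 169.5 ± 36.7 TPM in controls, higher with selenium, while the log2 change on the log2(TPM + 1) scale was -0.04 (95% interval -0.56 to 0.49, limma adjusted p = 0.959).

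Rsad2 encodes viperin, a radical SAM enzyme that makes a chain-terminating nucleotide. It was at 0.81, 1.32, 2.28, 1.49, 0.42 and 1.03 TPM in selenium 1 to 6, against 1.00, 1.86, 1.46, 0.85, 1.66 and 1.67 TPM in control 1 to 6. Selenium 3 was its highest library and selenium 5 its lowest, with the controls inside that range. Its log2 change was -0.15 (95% interval -0.54 to 0.24, limma adjusted p = 0.701). On the log2(TPM + 1) scale the changes of genes near 1 TPM, such as Rsad2, are understated.

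The Ifit proteins bind foreign RNA and keep it from being translated. Ifit1, which recognises RNA caps that lack a methyl mark, was at 1.80, 3.00, 2.43, 2.38, 1.01 and 2.50 TPM in selenium 1 to 6, against 2.98, 4.89, 3.11, 1.53, 2.66 and 2.50 TPM in control 1 to 6. Selenium 5 was lowest and control 2 highest, and the groups overlapped between 1.53 and 3.00 TPM. The log2 change was -0.30 (95% interval -0.72 to 0.13, limma adjusted p = 0.447). Ifit3, a partner that stabilises Ifit1 in human cells, was at 2.63, 6.60, 5.14, 7.38, 2.17 and 4.87 TPM in selenium 1 to 6, and at 6.04, 10.7, 7.19, 3.01, 7.65 and 4.83 TPM in control 1 to 6. Only selenium 1 and 5 were below all controls, and 3 controls, mice 2, 3 and 5, lay above at least 5 of the 6 selenium livers. The log2 change of Ifit3 was -0.40 (95% interval -0.99 to 0.20, limma adjusted p = 0.471).

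Ifit2, which binds AU-rich RNA and promotes cell death, was at 0.66, 0.37, 1.95, 0.97, 0.32 and 0.56 TPM in selenium 1 to 6, against 1.15, 3.53, 1.80, 0.53, 3.99 and 0.73 TPM in control 1 to 6. Control 2 and 5 stood above the rest, and control 4 lay among the low selenium livers. It reached 1 TPM in 5 libraries only and was therefore not tested in the filtered table. In the fit without a filter its log2 change was -0.62 (95% interval -1.32 to 0.07, limma adjusted p = 0.474). The authors' deposited table, with its sign turned to selenium over control, gave Ifit2 a log2 fold change of -1.32 and an adjusted p of 0.0609, the lowest among the 9 genes. For the 7 tested genes the authors' deposited table listed adjusted p-values of 0.402 for Ifit1 to 0.924 for Usp18, and its log2 fold changes, with the sign turned likewise, were positive for Irf7 (0.33), Isg15 (0.17), Usp18 (0.078) and Bst2 (0.071) and negative for Ifit1 (-0.39), Ifit3 (-0.43) and Rsad2 (-0.20). Its signs for Isg15, Usp18 and Bst2 were thus opposite to those on the log2(TPM + 1) scale.

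Ifit3 has a near copy, Ifit3b, and 31.7% of the stretches of 100 bases in the longest GENCODE M21 transcript of Ifit3 also occur in Ifit3b, so reads could be split between both. Ifit3b was at 0.98, 1.46, 2.14, 2.05, 0.74 and 0.92 TPM in selenium 1 to 6, against 1.97, 4.03, 2.68, 1.57, 2.6 and 1.78 TPM in control 1 to 6. Selenium 3 and 4 lay inside the control range, and the other 4 selenium livers were below every control. The log2 change was -0.53 with a 95% interval of -0.94 to -0.12, which did not pass over all genes (limma adjusted p = 0.170), and the authors' deposited table gave Ifit3b -0.80 with an adjusted p of 0.0632. Oas1a, which makes the second messenger that switches on RNase L, was listed at 0 everywhere, as was its copy Oas1g, with which it shares 40.9% of its stretches of 100 bases. Other genes of that cluster were detected, with Oas1b at 1.01 ± 0.498 TPM in selenium livers and 1.21 ± 0.451 TPM in controls (log2 change -0.15, limma adjusted p = 0.701) and Oas1c at 0.115 ± 0.0524 TPM in selenium livers and 0.210 ± 0.181 TPM in controls.

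**Figure D2:**
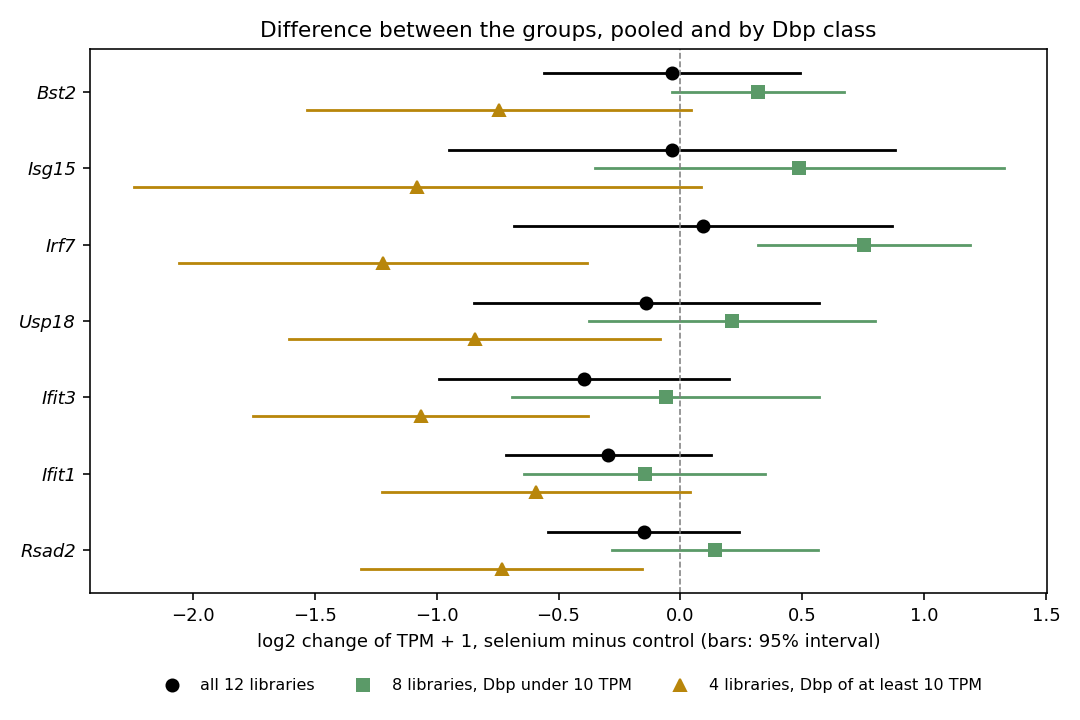
Log2 change of TPM + 1, selenium minus control, with 95% intervals, for the 7 tested genes, over all 12 libraries (circles), the 8 low-Dbp libraries (squares) and the 4 high-Dbp libraries (triangles). The pooled values lie between -0.40 and 0.09, and those of the 4 high-Dbp libraries are all negative. The 2 selenium livers of that class, selenium 1 and 5, were the lowest 2 libraries in all of these genes but Ifit1.

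Much of the spread was shared between the genes and lay in a few mice. Selenium 5 was the lowest of the 12 libraries in 8 of the 8 detected genes, while 20.1% of all genes tested had their lowest value there. Selenium 1 and 5 were the lowest 2 libraries in 6 of the 8, all but Ifit1 and Ifit2, against 9.71% of all genes tested. The mean of the 7 tested genes, each taken on the log2 scale relative to its mean over the 12 libraries, was -0.71, 0.60, 0.07, 0.44, -1.0 and 0.19 in selenium 1 to 6, and 0.02, 0.53, 0.24, -0.46, 0.26 and -0.18 in control 1 to 6. The selenium livers thus held the 2 lowest means and the highest.

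Selenium 1 and 5 were also the 2 libraries with the most Dbp. They are the only selenium livers of the high-Dbp class. In all tested genes but Ifit1 they were the lowest 2 of the 12 libraries. A negative change within that class was therefore fixed for those genes. Within the 4 high-Dbp libraries, 2 per group, the log2 change was negative in 7 of 7 genes with a median of -0.84, beside -0.17 over all genes tested, and it ranged from -0.59 in Ifit1 to -1.22 in Irf7. Under an unadjusted p of 0.05 were 4 of the 7, against 6.7% of all genes, and 0 passed after adjustment over all genes (limma adjusted p = 0.618 to 0.732), where 0% of all genes passed. Within the 8 low-Dbp libraries, 4 per group, the change was positive in 5 genes and negative in Ifit1 and Ifit3, with a median of 0.21 beside 0.06 over all genes tested. The largest of these was that of Irf7, at 0.75 (95% interval 0.32 to 1.19, limma adjusted p = 0.0889), and it was the 1 gene of the 7 under an unadjusted p of 0.05, against 21.4% of all genes. After adjustment 0 of the 7 passed in limma, where 0.471% of all genes did.

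The difference between the 2 classes was tested as an interaction of group and Dbp class. High minus low was negative in all 7 genes with a median of -1.06, beside -0.23 over all genes tested, and 5 of the 7 were under an unadjusted p of 0.05, against 9.67% of all genes. After adjustment over all genes 0 of the 7 passed, where 0% of all genes did (limma adjusted p = 0.320 to 0.673). The 7 genes varied together over the mice, so the counts under 0.05 here and within the classes are not of independent results. The interaction also draws on the low values of selenium 1 and 5, so it is no separate finding from those. Control 5 and 6, which had high Dbp too, were at 0.26 and -0.18 on that mean, between control 4 at the low end and control 2 at the high end. The summed Kupffer markers were 132 and 52.5 TPM in selenium 1 and 5, and 58.6 TPM in selenium 2, the library with the highest mean of the interferon-stimulated genes. Of these sums, Lyz2 made up 53.85 TPM in selenium 1, 14.7 TPM in selenium 5 and 11.3 TPM in selenium 2. The 7 T and NK cell markers summed to 1.8 and 0.9 TPM in selenium 1 and 5, the 2 lowest of the 12 sums, against 2.02 to 5.27 TPM in controls. All 7 had means under 1 TPM, and 1 of them passed the filter. Among them, Cd3e was at 0.51 TPM in selenium 1, inside the control range of 0.33 to 1.08 TPM. Cd4, Cd8a and Klrb1c of selenium 1 were also inside their control ranges, and Cd3d, Ncr1 and Nkg7 were below theirs. Selenium 5 also had the lowest sums of dendritic cell markers, 0.33 TPM against 1.11 to 4.21 TPM in controls, and of neutrophil markers, 3.18 TPM against 8.47 to 92.6 TPM in controls. Of the 5 dendritic cell markers 0 passed the filter, and of the 5 neutrophil markers 2 did. Selenium 1 had 1.18 TPM of dendritic cell markers, inside the control range. Sinusoidal endothelial markers summed to 27.3 TPM in selenium 5, inside the control range of 17.85 to 36.89 TPM. Bile duct and stellate markers summed to 41.2 TPM there, inside 32.65 to 62.62 TPM. Selenium 1, at 17.0 and 31.8 TPM, was below the controls in both. Selenium 2 had 2.11 TPM of T and NK cell markers and 1.03 TPM of dendritic cell markers. Its neutrophil markers summed to 4.37 TPM, below the 7.77 TPM of selenium 1. The part of cell makeup in the low values of selenium 1 and 5 was not tested.

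**Figure D3:**
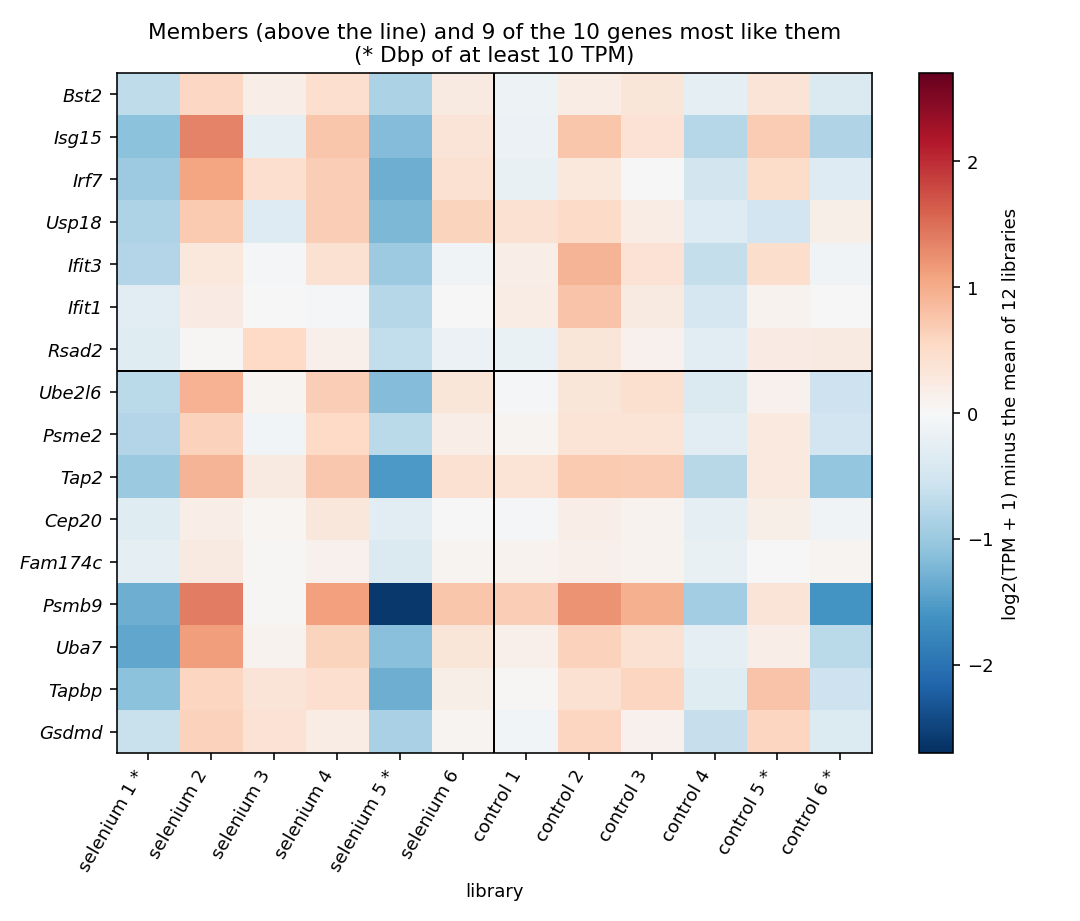
Log2(TPM + 1) minus the mean over 12 libraries (colour) for the 7 tested genes, above the line, and 9 of the 10 genes most like their mean, below it, in each library, with selenium left of the vertical line and control right, and an asterisk for Dbp of at least 10 TPM. Selenium 5 and selenium 1 are low across the genes, and selenium 2 and control 2 are high. The genes below the line were picked for their likeness to the mean.

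The 7 genes varied together over the 12 mice. All 21 pairs had a positive Pearson r on the log2 scale, from 0.45 to 0.96 with a median of 0.73, where the median over all pairs of tested genes was 0.11 and 3.56% of all pairs lay at or above 0.73. After Benjamini-Hochberg adjustment over the 21 pairs, 19 passed 0.05 by a permutation test of r and 12 by that of Spearman's rho, whose median was 0.67. The closest pairs were Bst2 with Irf7 (r = 0.96, rho = 0.93) and Isg15 with Bst2 (r = 0.94, rho = 0.95). The adjusted permutation p of r was 0.000105 for both, from the smallest p that the permutations could give. Rsad2 with Usp18 (r = 0.45, adjusted permutation p = 0.139, rho = 0.33) and Isg15 with Rsad2 (r = 0.53, adjusted permutation p = 0.0812, rho = 0.46) did not pass.

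Without the 2 libraries farthest from the median of the first gene of each pair, all 21 values of r stayed positive, with a median of 0.57 and a range of 0.32 to 0.92. Selenium 5 was among those left out in every pair. In the 8 low-Dbp libraries the median r was 0.56 and 20 of 21 were positive, the exception being Rsad2 with Usp18 at -0.11. With each group centred on its mean, the median was 0.75. Within the 6 selenium livers alone the median r was 0.92, and within the 6 controls 0.68, where Usp18 with Bst2 and Usp18 with Irf7 were at -0.08 and -0.07. Bst2 and Irf7 kept r of 0.90 in both the 8 low-Dbp libraries and the 10 libraries left after removing the farthest.

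**Figure D4:**
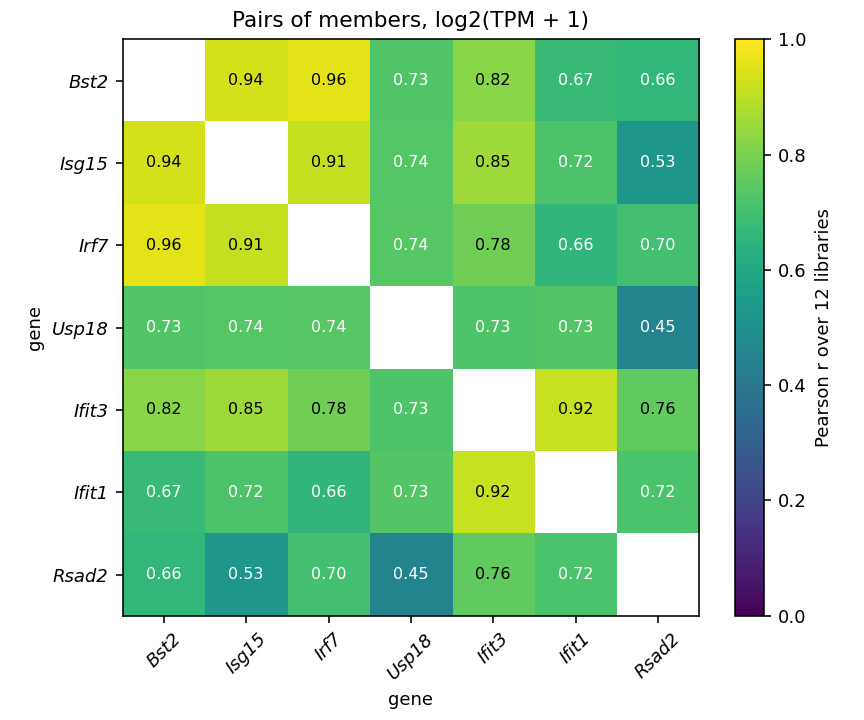
Pearson r over 12 libraries of log2(TPM + 1) for each of the 21 pairs of the 7 tested genes, in colour and in figures, with the same genes on both axes. The highest value is 0.96 for Bst2 and Irf7 and the lowest 0.45 for Rsad2 and Usp18.

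The 10 other genes most like the mean of the 7 over the 12 libraries included Ube2l6 (r = 0.95), Psme2 (0.94), Tap2 (0.94), Cep20 (0.94), Fam174c (0.94), Psmb9 (0.93), Uba7 (0.93), Tapbp (0.93) and Gsdmd (0.93). Of all genes tested, 0.130% reached the r of the tenth. That share holds the 10 genes themselves and Isg15, Bst2 and Irf7, which are part of the mean, so it is no background for the 10. Uba7 and Ube2l6 are the activating and conjugating enzymes for Isg15, Psmb9 and Psme2 belong to the immunoproteasome and its activator, Tap2 and Tapbp load peptides on MHC class I, and Gsdmd forms pores in pyroptosis. Ube2l6 had 22.9 to 102 TPM in selenium livers with a median of 61.5, and 35.9 to 72.2 TPM in controls with a median of 54.5. As with Isg15, its selenium range enclosed that of the controls. Psmb9 spanned 4.31 to 83.0 TPM in selenium livers and 9.58 to 74.5 TPM in controls. Its lowest value was in selenium 5 and its highest in selenium 2. The 10 genes were picked for their likeness to the mean, so shared low and high libraries follow largely from that choice.

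Around these genes, 138 further genes of the interferon pathway were sorted into 12 lists by role, and 100 of them passed the filter. The log2 change was positive in 39 and negative in 61, with a median of -0.09 beside -0.03 over all genes tested. Past an adjusted p of 0.05 were 1 gene higher with selenium, Mavs, and 0 lower, against 0.02% of all genes higher and 0.311% lower. At an unadjusted p under 0.05 were 10 of the 100, of which 3 higher and 7 lower, against 7.01% of all genes higher and 11.4% lower. By the exact permutation test 0 passed after adjustment, as did 0% of all genes. Its smallest adjusted p over all genes was 0.133, so it cannot set these genes apart from the rest.

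**Figure D5:**
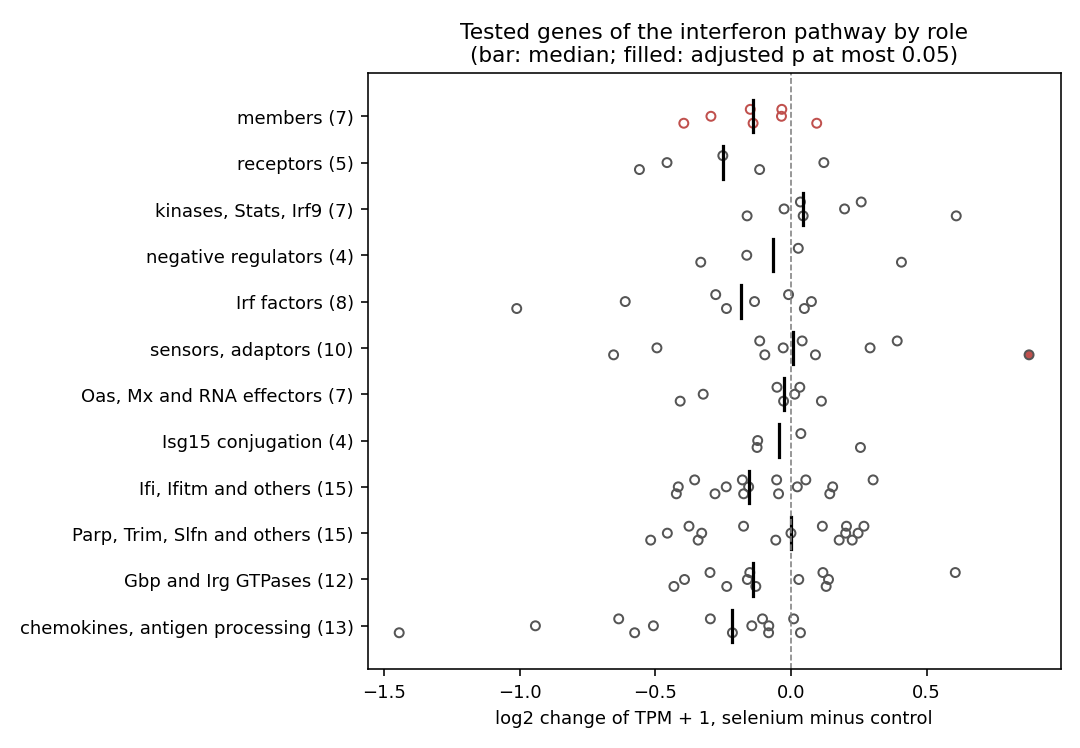
Log2 change of TPM + 1, selenium minus control, for the 7 interferon-stimulated genes (top row) and the 100 other tested genes of the pathway by role, with a point per gene, a bar at the median of each list and the number of genes in brackets. The single filled point in the row of sensors and adaptors, at 0.88, is Mavs.

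Of the 21 interferon genes themselves none passed the filter and 19 were listed at 0 in all libraries. Ifng, the type II interferon of T and NK cells, was at 0.138 ± 0.139 TPM in selenium livers and 0.188 ± 0.239 TPM in controls, and Ifnk was detected in control 1 only. Of the receptors, Ifnar2 was at 61.5 ± 11.2 TPM with selenium and 74.5 ± 20.9 TPM in controls, and Ifnar1 at 6.43 ± 1.41 TPM with selenium and 5.76 ± 0.546 TPM in controls. Ifngr1, a chain of the receptor for Ifng, had 6.51 ± 1.56 TPM with selenium and 9.43 ± 2.92 TPM in controls, with a log2 change of -0.46 that did not pass (limma adjusted p = 0.194).

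Among 7 kinases and Stats, 5 changes were positive and 0 passed. Irf9, the DNA-binding partner of the Stats, was at 14.6 ± 3.77 TPM with selenium and 12.5 ± 2.40 TPM in controls. Stat3, better known as the transducer of interleukin 6, was at 13.6, 18.2, 26.6, 17.2, 7.25 and 17.2 TPM in selenium 1 to 6, against 10.9, 9.55, 10.6, 9.68, 7.07 and 12.4 TPM in control 1 to 6. Selenium 5 lay with the controls and the other selenium livers above all of them. Its log2 change of 0.61 did not pass over the 12 libraries (limma adjusted p = 0.188). In the 8 low-Dbp libraries the change was 0.87 (limma adjusted p = 0.0483), and in the 4 high-Dbp libraries 0.08 (limma adjusted p = 0.972). Ptpn2, a phosphatase of Jak kinases and Stats, had a log2 change of -0.33 (limma adjusted p = 0.166).

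Of the 8 genes on the Irf list, which also holds the Irf2-binding proteins Irf2bp1 and Irf2bp2, 6 changes were negative and 0 passed. Irf2, which competes with Irf1 for its sites and damps the response, was at 22.3 ± 2.14 TPM with selenium and 35.2 ± 7.59 TPM in controls, a log2 change of -0.61 (limma adjusted p = 0.0713). Irf3 was at 19.5 ± 3.28 TPM with selenium and 23.2 ± 3.90 TPM in controls, and Irf1 at 17.0 ± 5.6 TPM with selenium and 15.8 ± 4.35 TPM in controls. Irf2bp2, a co-repressor of Irf2, had the largest change of the list. It was at 1.95, 3.70, 4.73, 7.41, 3.58 and 7.79 TPM in selenium 1 to 6, against 8.21, 9.52, 8.71, 15.8, 11.1 and 8.48 TPM in control 1 to 6. Every selenium liver was below every control, and the log2 change of -1.01 did not pass (95% interval -1.54 to -0.49, limma adjusted p = 0.0733).

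Mavs, the mitochondrial adaptor of the RNA sensors RIG-I and MDA5, was at 18.7, 17.5, 18.5, 13.9, 12.98 and 14.7 TPM in selenium 1 to 6, against 8.29, 7.19, 8.61, 9.41, 4.94 and 12.4 TPM in control 1 to 6. Every selenium liver was above every control. Mavs rose by 0.88 on the log2 scale (95% interval 0.51 to 1.24, limma adjusted p = 0.0440). Within the 8 low-Dbp libraries the change was 0.87 (95% interval 0.57 to 1.17). It was 0.89 in the 4 high-Dbp libraries (95% interval -0.14 to 1.92, limma adjusted p = 0.732). The call was lost when any library other than control 6 was removed, with changes of 0.75 to 0.99 over the 12 such fits. The adjusted exact permutation p of Mavs was 0.133. That is the floor of the test here, shared by every gene whose groups did not overlap (1.63% of all genes tested), such as Irf2bp2. Of the other sensors, Zbp1 was at 25.7 ± 19.6 TPM with selenium and 15.5 ± 8.79 TPM in controls, and Tbk1, the kinase downstream of Mavs, at 7.62 ± 2.02 TPM with selenium and 7.73 ± 1.64 TPM in controls.

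In the 6 lists of effectors and antigen processing 0 genes passed in either direction. Their medians were -0.03 for Oas, Mx and other RNA effectors, -0.04 for Isg15 conjugation, -0.16 for Ifi and Ifitm genes, -0.00 for Parp, Trim and Slfn genes, -0.14 for Gbp and Irg GTPases, and -0.22 for chemokines and antigen processing. Ifitm3, which blocks virus entry at endosomes, was the most abundant of the effectors outside antigen processing, at 894 ± 441 TPM with selenium and 857 ± 214 TPM in controls. B2m, the light chain of MHC class I, was at 2075 ± 534 TPM with selenium and 3048 ± 1128 TPM in controls, with a log2 change of -0.51 (limma adjusted p = 0.324). Tgtp1, an Ifng-induced GTPase, ranged over 1.49 to 302 TPM in selenium livers and 4.72 to 213 TPM in controls, and was lowest in selenium 5.

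Over the 100 pathway genes the median log2 change was -0.64 in the 4 high-Dbp libraries, beside -0.17 over all genes tested, and 0.19 in the 8 low-Dbp libraries, beside 0.06. In the low-Dbp libraries the medians of the receptors and of the Irf list were negative, at -0.056 and -0.029, and those of the other tested lists were positive. Of the pathway genes, 96 of the 100 had a positive r with the mean of the 7 genes over the 12 mice, against 70.5% of all genes tested.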

How the data were processed

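RNA of 12 livers, 6 selenium and 6 control, was sequenced. The deposited tables hold TPM per gene. The submitters' processing notes name RSEM 1.2.8, HISAT2 2.1.0, DESeq2 and the build GRCm39, with roles and settings not given in the sources used here. The authors' deposited comparison holds log2 fold changes of control over selenium, p-values and adjusted p-values. Its sign was turned here. The values of the series table equalled those of the single tables in 100% of cells, and 2 columns of averages were not used. TPM carries no depth, so no counting error is given.

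Genes with at least 1 TPM in 6 or more libraries were fitted on log2(TPM + 1) with limma 3.58.1 under R 4.3.3, by a two-sided moderated test whose prior variance followed the mean level, with Benjamini-Hochberg adjustment over all 9980. The script was tested on simulated data. The exact permutation test used all 924 labellings, and correlations used 100000 permutations, two-sided. The stated fits assume that each library is a separate mouse. Same-numbered libraries of both groups deviated together at r of -0.14 to 0.11, so the numbers were not taken as pairs.

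The 9 genes, the pathway lists and the marker lists were chosen with earlier results of these data known. Named are the 9 genes, near copies with a mean of at least 0.1 TPM, pathway genes among the 3 most abundant of their list or past the threshold, the 10 genes most like the mean of the 7, Dbp and Mavs. Irf2bp2 was named after its values were seen. Not every gene so named is given with values, and some are not reported here. Promoter windows came from RefSeq (GRCm38.p6), whose build differs from that in the processing notes, so they were matched by symbol only. Shared stretches were counted between GENCODE M21 transcripts.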

Additional observations from a re-analysis of the deposited data

Results flagged for a closer look

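Of 91 groups of 6 libraries checked for a single value far from the rest, 4 were found, and chance gives about 1 in 20. Ifng was at 0.64 TPM in control 5, where the next control had 0.22 TPM. Ifnk was at 0.26 TPM in control 1 and listed at 0 in the other controls. Ptpn6, a phosphatase of blood cells, was at 10.4 TPM in control 5 with the next control at 5.87 TPM, and Socs3, an inhibitor of Jak kinases, at 4.01 TPM in control 5 with the next control at 1.79 TPM. Control 5 also had the highest control sums of Kupffer markers, 325 TPM, and of neutrophil markers, 92.6 TPM. Of the Kupffer sum 287 TPM was Lyz2, which other myeloid cells also express, while Clec4f (12.6 TPM) and Vsig4 (2.97 TPM) were at their lowest of the 12 libraries in control 5. The part of cell makeup in these values was not tested.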

How the results depend on the processing

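No interferon-stimulated gene passed the threshold in any of 205 values from other settings, with a lowest adjusted p of 0.0889 for Irf7 in the 8 low-Dbp libraries. In those libraries Isg15 (0.49), Rsad2 (0.14), Usp18 (0.21) and Bst2 (0.32) turned positive, and in the 4 high-Dbp libraries, a setting chosen after seeing the data, Irf7 turned to -1.22. With 1 library left out, the log2 change spanned -0.30 to 0.20 for Isg15, -0.30 to 0.088 for Usp18, -0.15 to 0.13 for Bst2 and -0.11 to 0.37 for Irf7, -0.27 to -0.031 for Rsad2, -0.41 to -0.17 for Ifit1 and -0.56 to -0.24 for Ifit3, and the number of these genes past the threshold stayed at 0. Without control 4, Ifit1 and Ifit3 were under an unadjusted p of 0.05 (limma adjusted p = 0.275 and 0.287). The cause of these turns was not tested.

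Over all genes, 33 passed. The count was 1 without a filter, 12 with quantile normalization, 190 without mitochondrial-encoded genes (6 higher, 184 lower), 56 with robust empirical Bayes, 0 by the exact permutation test, 0 in the 4 high-Dbp libraries and 3 with the replicate block. With 1 library left out it was 7 to 171, with 171 reached without control 6. Leaving out mitochondrial-encoded genes moved the median of all genes to -0.11 and that of the 7 genes to -0.22. Of the other pathway genes, 1 passed, against 0 without a filter, with quantile normalization, by the exact permutation test, with the replicate block and in the 4 high-Dbp libraries, 3 without mitochondrial-encoded genes (Irf2, Irf2bp2 and Mavs), 3 in the 8 low-Dbp libraries (Stat3, Socs3 and Mavs) and 0 to 1 with 1 library left out (Irf2 without control 1, Mavs without control 6). The median r of the 21 pairs was 0.56 in the 8 low-Dbp libraries and 0.60 to 0.78 with 1 library left out, lowest without selenium 5. In the fit with the replicate number as a block, 0 of the 7 genes passed, and 0 of 6 libraries correlated best with their own number. TPM carries no depth, so precision at low levels, as for Ifit2 and Rsad2, is unknown.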
